A study of Mus musculus with 20 samples.

Results

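Stc1 and Stc2, the mouse genes of the stanniocalcin family, were followed through 20 mammary tumours. They are 2 of 38947 genes that the deposited table names. Each gene was represented by its transcript with the highest total over the 20 libraries. Both were chosen by measured values of these libraries: Stc2 because its normalised count had already been seen to be lower in letrozole-treated tumours, and Stc1 as the other member of the family. The letrozole differences of Stc2 are therefore given as a description without a test.

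Stanniocalcins are secreted glycoproteins, first known from fish as hormones that lower calcium in the blood. In mammals they act mainly near the cells that make them. The human proteins bind and inhibit PAPP-A, a metalloprotease that cleaves IGF-binding protein 4 and so frees insulin-like growth factors. In human breast cancer cells STC2 is known as an oestrogen-induced gene, and both human genes are also induced under hypoxia.

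The tumours grew from SSM3 cells, a mouse mammary tumour line positive for the oestrogen receptor, placed in a mammary gland of immunocompetent 129S6/SvEv mice aged 2 to 4 months, and treatment began at about 150 mm3. Mice of the letrozole + anti-PD-1 group were ovariectomised and received 1 mg/kg of letrozole, an aromatase inhibitor, under the skin each day for 25 days, plus 250 µg of an antibody against the checkpoint receptor PD-1 on days 3, 5 and 7. The letrozole group had the ovariectomy and letrozole alone. The anti-PD-1 group had sham surgery, the antibody and daily 5% ethanol in saline, and the vehicle group had sham surgery and ethanol in saline. Each group held 5 tumours, which the design text calls biological replicates. Ovariectomy and letrozole came together in every treated mouse and cannot be told apart, so "letrozole" stands for both.

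With 1 transcript taken for each gene, a library held between 12456356 and 31301954 reads. All 10 luminal epithelium markers were detected in every group, with summed levels of 244402 to 340361 normalised counts per tumour, against 2475 to 71814 for 10 fibroblast markers. The classical oestrogen target Pgr stood at 733 to 1618 normalised counts in letrozole + anti-PD-1 and 805 to 1725 in letrozole tumours, against 7763 to 18215 in anti-PD-1 and 11568 to 17673 in vehicle tumours. The libraries of vehicle replicate 3 and anti-PD-1 replicate 1 were already known to stand apart, and some results that they touch are also given without them. The values of likeness, of spread within groups and of the minor transcripts rest on all 20 libraries. In bulk tumour RNA, fewer cells of a type and less RNA per cell cannot be told apart.

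Both genes have 4 exons in GENCODE vM21 (GRCm38), and exons 2 and 3 have the same lengths in both, 143 and 212 bases. Stc1 lies on chromosome 14, with 1 transcript of 4197 bases and a coding sequence for 247 residues. Stc2 lies on chromosome 11, with 5 transcripts, of which Stc2-201 (ENSMUST00000020546, 3940 bases, 296 residues) had the highest total. Over 740 aligned bases, the coding sequences were 58.1% identical. Stc2-201 shares no exon base with another gene. Stc1 (ENSMUST00000014957) shares 5.46% of its exon bases with the antisense gene Gm41192, and no source used here says whether the counting used strand, so that share of its reads is uncertain.

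The 250 bases before the RefSeq start of Stc2 (GRCm38.p6, chr11:31370062-31370311, minus strand) are printed because this gene's level separated the letrozole-treated tumours from the rest. Capitals mark the matches to the motifs searched on both strands.
Stc2 upstream region: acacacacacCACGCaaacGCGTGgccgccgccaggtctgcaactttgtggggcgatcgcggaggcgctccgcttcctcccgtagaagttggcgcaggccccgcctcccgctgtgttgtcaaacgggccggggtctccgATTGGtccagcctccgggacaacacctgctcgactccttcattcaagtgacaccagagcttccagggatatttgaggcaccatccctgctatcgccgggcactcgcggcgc
GCGTG, a core of the hypoxia response element, matched at positions -240 to -236 (as CACGC) and -231 to -227, and 28.2% of the 32851 upstream windows in the RefSeq table hold at least 1 such match. CCAAT matched once, as ATTGG at -111 to -107, a motif held by 33.8% of windows. No match was found in this window to the full oestrogen response element GGTCANNNTGACC (0.0639% of windows), to its single arm GGTCA (35.2%), to the other hypoxia core ACGTG (16.6%), to the stress element TGATGCAA (0.791%), to the GC box GGGCGG (32.7%) or to TATAAA (12.4%). The window was 64.4% G and C, against a median of 52.4% over all windows.

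Stc2 was low in every letrozole-treated tumour. It stood at 645, 1211, 1582, 945 and 925 normalised counts in letrozole + anti-PD-1 tumours and at 776, 1473, 663, 1084 and 1043 in letrozole tumours. It stood at 4575, 6016, 3562, 10243 and 4313 in anti-PD-1 tumours and at 7780, 9753, 3855, 7538 and 7083 in vehicle tumours. The highest letrozole-treated tumour, at 1582, lay below the lowest sham-operated tumour, at 3562, so the groups with and without letrozole did not overlap. This is the pattern for which the gene was chosen, and how many other genes separate the groups was not counted. Within either side, the antibody groups overlapped.

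**Figure D1:**
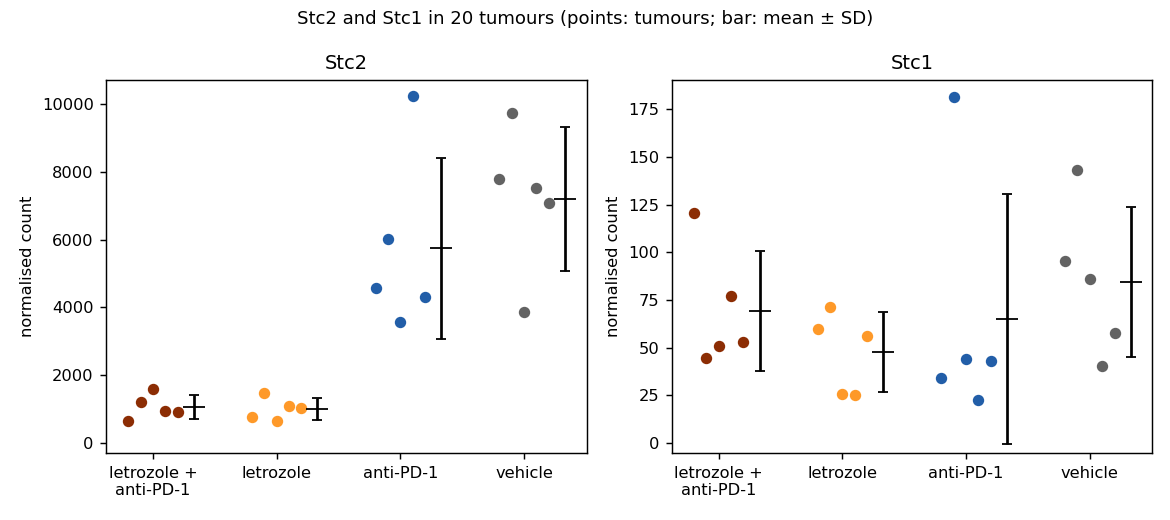
Normalised counts (y axis, linear) of Stc2 (left) and Stc1 (right) in each tumour of the 4 groups (x axis), with the mean ± SD of each group beside its 5 points. The 10 letrozole-treated tumours had at most 1582 normalised counts of Stc2 and the 10 sham-operated tumours at least 3562, while the Stc1 values of the groups overlapped.

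Group means of Stc2 were 1061 ± 353 normalised counts in letrozole + anti-PD-1, 1008 ± 315 in letrozole, 5742 ± 2669 in anti-PD-1 and 7202 ± 2132 in vehicle tumours (SD, n = 5 each). On the log2(value + 1) scale the difference was −2.83 (SE 0.29, 95% interval −3.43 to −2.23) for letrozole against vehicle, 7.11-fold lower. For letrozole + anti-PD-1 against anti-PD-1 it was −2.39 (SE 0.29, 95% interval −3.00 to −1.79), 5.25-fold lower. Among 19844 tested genes these were the 25th and 53rd lowest differences. These values belong to the pattern for which the gene was chosen. In letrozole against vehicle, limma called 0.957% of all tested genes, 0.549% lower and 0.408% higher. In letrozole + anti-PD-1 against anti-PD-1 it called 1.07%, 0.595% lower and 0.479% higher.

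The lowest Stc2 value among vehicle tumours, 3855 normalised counts, was in replicate 3. That library also had the highest summed fibroblast level of its group (64118 normalised counts, against 2475 to 18823 in the other 4) and the highest summed macrophage level (18650, against 1891 to 6339). Without this library the letrozole difference of Stc2 was −3.04, larger than with it, and without anti-PD-1 replicate 1 the difference of letrozole + anti-PD-1 against anti-PD-1 was −2.45. In the letrozole difference averaged over both antibody arms, limma called 0 of 10 fibroblast and 0 of 10 macrophage markers (4 and 7 at an unadjusted p under 0.05, 0 of each by edgeR and by DESeq2). Without the 2 libraries that stand apart it called 2 of the fibroblast and 6 of the macrophage markers higher, beside 1346 of all 19542 genes tested then. With all libraries, limma called 7.00% of all tested genes in this averaged comparison, 3.29% higher and 3.71% lower. At an unadjusted p under 0.05 the comparison held 4541 of 19844 genes. Called higher were 604 of 19844 genes by edgeR and 898 of 16313 by DESeq2. Of 10 luminal markers, limma, edgeR and DESeq2 each called 2 higher, Epcam and Gata3, named here after their values were seen. Of 9 basal and myoepithelial markers, limma called 0 (4 at an unadjusted p under 0.05), edgeR 0 and DESeq2 4 higher, with all 9 differences above 0 and a median log2 difference of 1.33 (2.47 for letrozole against vehicle). Of 9 tested skeletal muscle markers, limma called 0 (5 at an unadjusted p under 0.05), edgeR 6 higher and DESeq2 5 higher, with a median of 2.05. This median was 2.20 for letrozole against vehicle but 0.30 between the groups given the antibody. Summed muscle levels were 4550, 2452 and 1585 normalised counts in letrozole replicates 1, 4 and 5. Replicate 2 of the letrozole + anti-PD-1 group had 3040. Every other letrozole-treated tumour had 52.4 to 142, against 56.8 to 261 over the sham-operated tumours. Of the tested endothelial, T cell and adipocyte markers, limma, edgeR and DESeq2 each called 0. The part of the other cell types in the level of Stc2 was not tested. Among anti-PD-1 tumours, replicate 4 had the highest level of Stc2, 10243, with a summed fibroblast level of 17924, inside the range of its group (5724 to 40345).

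No difference of Stc2 with the antibody passed the test. For anti-PD-1 against vehicle the log2 difference was −0.37 (95% interval −0.97 to 0.23, limma adjusted p = 1.00 over all genes). For letrozole + anti-PD-1 against letrozole it was 0.067 (95% interval −0.54 to 0.67, limma adjusted p = 1). The interaction, which is the letrozole difference with the antibody minus that without it, was 0.44 (95% interval −0.42 to 1.29, limma adjusted p = 1.00). In each of these comparisons limma called 0 of 19844 genes (0%). At an unadjusted p under 0.05 they held 539, 627 and 392 genes, edgeR called 0 in each, and DESeq2 called 5, 9 and 4.

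**Figure D2:**
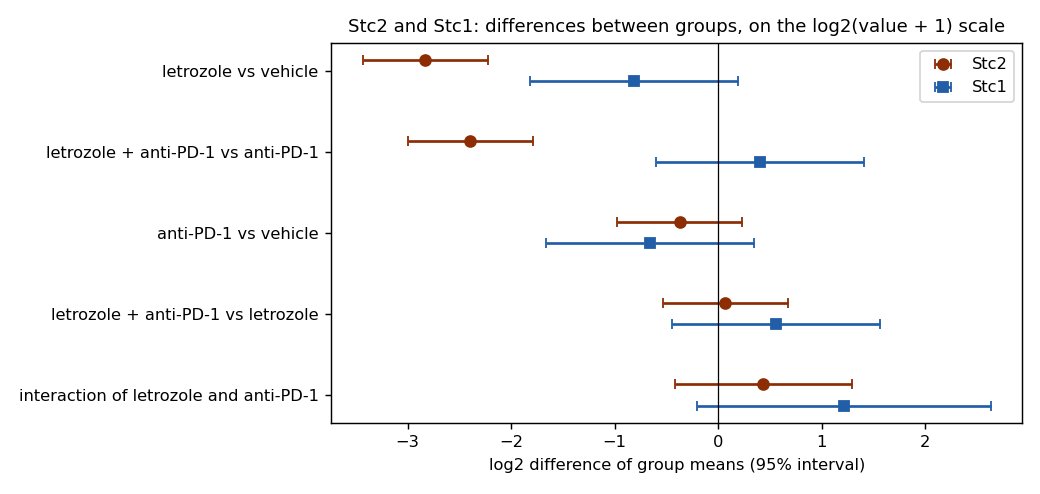
Log2 differences between group means on the log2(value + 1) scale (x axis) for Stc2 (circles) and Stc1 (squares) in 5 comparisons (y axis), with 95% intervals from limma. Stc2 lies at −2.83 and −2.39 in both letrozole comparisons, the values for which it was chosen, and the differences of Stc1 lie between −0.81 and 1.22.

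Stc2 varied more between tumours of a group than most genes of its level. Its pooled SD within groups was 0.51 on the log2 scale, against a median of 0.19 over 1845 genes whose mean level lay within 0.5 log2 units, and 96.9% of those genes had a smaller SD. The mean log2 level of Stc2 lay above that of 89.6% of tested genes.

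The 4 minor Stc2 transcripts, all annotated as processed transcripts without a coding sequence, hold between 298 and 1235 bases of the first intron of Stc2-201, and 3 of them also share exon bases with it. Reads in the shared bases count for several transcripts, so these values are not independent of Stc2-201. Stc2-203, which shares 69.0% of its bases with Stc2-201, stood at 92.8% ± 1.52 of the normalised count of Stc2-201 in letrozole + anti-PD-1, 91.7% ± 0.858 in letrozole, 90.5% ± 1.95 in anti-PD-1 and 90.03% ± 1.03 in vehicle tumours (SD, n = 5 each). It followed the main transcript closely in every tumour.

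Stc2-204 shares 45.2% of its 544 bases with Stc2-201 and has its other 298 in the first intron. Relative to Stc2-201 it stood at 20.5%, 24.7%, 19.6%, 16.5% and 20.2% in letrozole + anti-PD-1 tumours, at 12.4%, 19.3%, 16.9%, 19.0% and 17.3% in letrozole tumours, at 24.2%, 24.6%, 23.4%, 22.5% and 20.4% in anti-PD-1 tumours, and at 20.8%, 28.8%, 20.6%, 25.4% and 25.5% in vehicle tumours. The letrozole and vehicle values did not overlap, with 19.3% and 20.6% as the nearest, and the values of both antibody groups did. How many other transcripts separate these groups was not counted. Between group means, Stc2-204 was 10.2-fold lower in letrozole than in vehicle tumours, against 7.15-fold for Stc2-201 by the same ratio. With the antibody the ratios were 6.10-fold for Stc2-204 and 5.41-fold for Stc2-201. These reads rest on 114 to 401 counts in letrozole-treated and 523 to 2476 in sham-operated tumours.

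Stc2-205, which holds 118 bases of the first exon and 329 of the first intron, showed a like order of relative levels. It averaged 12.9% ± 2.41 of Stc2-201 in letrozole + anti-PD-1, 11.7% ± 2.27 in letrozole, 15.3% ± 1.65 in anti-PD-1 and 16.5% ± 2.34 in vehicle tumours (SD, n = 5 each). The ranges overlapped in both letrozole comparisons.

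Stc2-202 lies wholly in the first intron and shares no base with Stc2-201. It stood at 11.7 ± 7.94 normalised counts in letrozole + anti-PD-1, 14.4 ± 7.85 in letrozole, 78.7 ± 48.9 in anti-PD-1 and 94.8 ± 34.1 in vehicle tumours (SD, n = 5 each). Its highest value with letrozole, 25.3, lay below its lowest without, 36.0, which repeats the pattern for which Stc2 was chosen. The number of other transcripts that separate in this way was not counted. The ratio of means was 6.59-fold lower for letrozole against vehicle and 6.75-fold lower for letrozole + anti-PD-1 against anti-PD-1. Relative to Stc2-201 it showed no such order, at 0.36% to 1.88% with letrozole and 0.787% to 2.53% without, and it rests on 2 to 30 reads per letrozole-treated tumour.

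**Figure D3:**
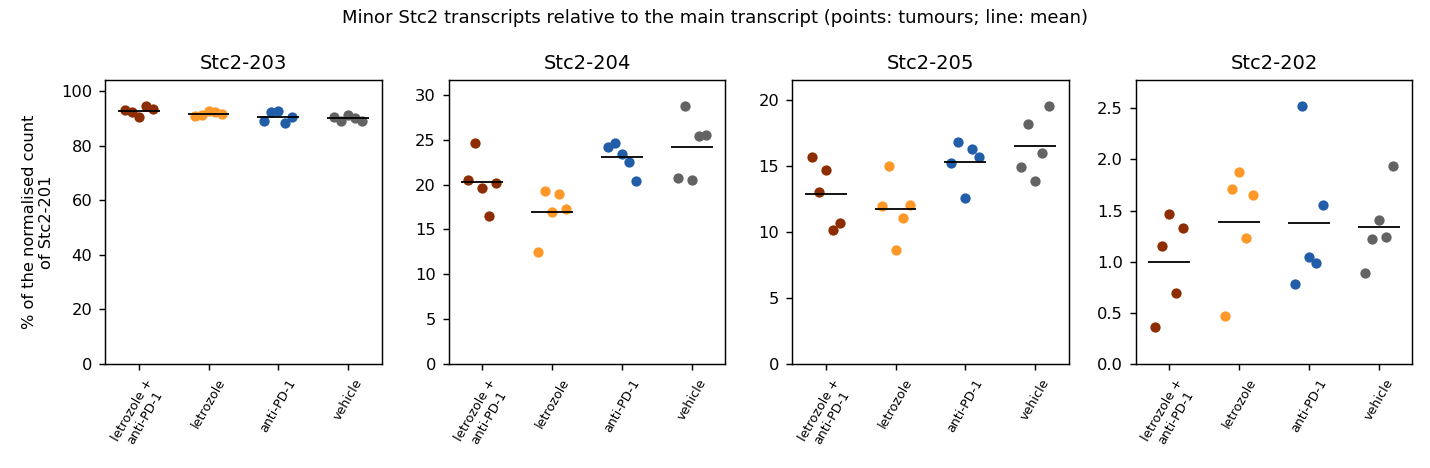
Normalised count of each minor Stc2 transcript as a percentage of that of Stc2-201 (y axis, each panel with its own scale from 0) by tumour in the 4 groups (x axis), with group means as lines. Stc2-204 ran from 12.4% to 19.3% in letrozole and from 20.6% to 28.8% in vehicle tumours, while Stc2-203 stayed between 88.2% and 94.7% in all 20 tumours.

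Stc1 was far less abundant than Stc2. Per kilobase of transcript, Stc1 averaged 16.5 ± 7.45 normalised counts in letrozole + anti-PD-1, 11.4 ± 5.01 in letrozole, 15.5 ± 15.6 in anti-PD-1 and 20.1 ± 9.38 in vehicle tumours (SD, n = 5 each). Stc2 averaged 269 ± 89.7, 256 ± 79.9, 1457 ± 677 and 1828 ± 541 per kilobase in the same groups. The ratio of these mean levels per kilobase, Stc2 over Stc1, was 16.3 in letrozole + anti-PD-1, 22.5 in letrozole, 94.1 in anti-PD-1 and 90.8 in vehicle tumours. Stc2 was the more abundant gene in all 20 tumours, with ratios from 5.69 to 484.

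Stc1 stood at 121, 44.4, 51.0, 77.1 and 52.8 normalised counts in letrozole + anti-PD-1 tumours and at 59.96, 71.3, 25.9, 25.0 and 56.1 in letrozole tumours. It stood at 33.9, 181, 44.2, 22.5 and 43.1 in anti-PD-1 tumours and at 95.2, 143, 86.1, 40.4 and 57.5 in vehicle tumours. All 4 groups overlapped, and the highest and the lowest value of the study were both in the anti-PD-1 group. These levels rest on 16 to 126 reads per tumour, and the share of counting error in their spread was not computed.

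Group means of Stc1 were 69.2 ± 31.3 normalised counts in letrozole + anti-PD-1, 47.6 ± 21.0 in letrozole, 65.0 ± 65.6 in anti-PD-1 and 84.5 ± 39.4 in vehicle tumours (SD, n = 5 each). The order of the means was vehicle, letrozole + anti-PD-1, anti-PD-1 and letrozole, and no neighbours in that order differed beyond their spread. For letrozole against vehicle the log2 difference was −0.81 (SE 0.48, 95% interval −1.82 to 0.19, limma adjusted p = 0.47). For letrozole + anti-PD-1 against anti-PD-1 it was 0.40 (95% interval −0.60 to 1.41, limma adjusted p = 0.761). Averaged over both antibody arms it was −0.20 (95% interval −0.91 to 0.51, limma adjusted p = 0.768).

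The antibody comparisons of Stc1 did not pass the test either. The log2 difference was −0.66 for anti-PD-1 against vehicle (95% interval −1.66 to 0.34, limma adjusted p = 1.00) and 0.56 for letrozole + anti-PD-1 against letrozole (95% interval −0.45 to 1.56, limma adjusted p = 1). The interaction was 1.22 (95% interval −0.20 to 2.63, limma adjusted p = 1.00). One tumour weighed on these values: without anti-PD-1 replicate 2, which had 181 normalised counts, the interaction was 1.69 and the difference of anti-PD-1 against vehicle −1.13 (limma adjusted p = 0.998 and 1.00), and the averaged letrozole difference was 0.031. The pooled SD of Stc1 within groups was 0.80 on the log2 scale, against a median of 0.63 over 1511 genes of like level.

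No relation between Stc1 and Stc2 across tumours was detectable. Since Stc2 falls into separate clusters, the relation was computed apart in the letrozole-treated and the sham-operated tumours. In 10 letrozole-treated tumours Pearson's r was −0.09 (permutation p = 0.803, adjusted over 2 relations 0.813) and Spearman's rho −0.28 (permutation p = 0.426, adjusted 0.853). In 10 sham-operated tumours r was 0.08 (permutation p = 0.813, adjusted 0.813) and rho −0.02 (permutation p = 0.973, adjusted 0.973). Without the 2 tumours farthest from the median of Stc2, r was 0.34 (exact permutation p = 0.41, n = 8) and 0.11 (exact permutation p = 0.791, n = 8).

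The genes most like Stc2 were sought over all 20 libraries, by Pearson's r of log2(value + 1) among 9187 named genes above the median level. The points share the treatment groups, so r also carries the difference with letrozole. Kcne2, a potassium channel subunit, came first (r = 0.96), followed by Slc5a3, which carries myo-inositol (0.95), Pgr (0.94) and Podxl, which encodes the sialomucin podocalyxin (0.93). Then came Mrps6, a mitochondrial ribosomal protein gene (0.93), Gatb, a subunit of the mitochondrial amidotransferase that charges glutamine tRNA (0.92), Amd1, whose enzyme supplies polyamine synthesis (0.92), and Qsox1, a secreted enzyme that forms disulfide bonds (0.92). Their letrozole differences averaged over both arms ran from −5.60 for Kcne2 to −0.80 for Gatb, beside −2.61 for Stc2. Exons of Slc5a3 and of a further gene cover 36.1% of Mrps6, so Slc5a3 and Mrps6 are not separate observations.

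By deviations from the group means over 20 libraries, the ribosomal protein gene Rps7 came first (r = 0.85), followed by Eef1e1, a scaffold of the tRNA synthetase complex (0.83), Tlcd1 (0.83), the tRNA-maturing enzyme gene Trnt1 (0.81) and the RNA exosome gene Exosc1 (0.81). For the 8 genes named before, the same measure ran from 0.32 for Pgr to 0.76 for Amd1, with 0.62 for Qsox1, 0.59 for Gatb and 0.57 for Kcne2. Averaged over both arms, the letrozole differences of these 5 genes were small, from −0.35 for Rps7 to −0.17 for Exosc1. Exons of other genes, Rpl23a among them, cover 26.04% of Tlcd1, and such overlap covers 6.31% of Trnt1.

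The likeness to Stc1 was weaker. Over 20 libraries the highest was to Nrarp, a Notch pathway regulator (r = 0.75), and to Vwf, the endothelial von Willebrand factor gene (0.66), followed by Lrrc40 (0.64), Gmds (0.64), Rbms1 (0.61), Dmtf1 (0.60), Ppih (0.59) and Nckap5l (0.58). By deviations from the group means, Prkra (0.79), Nrarp (0.73), Rbms1 (0.71), Ugcg (0.70) and Dgcr8 (0.69) came first. Overlapping genes cover 79.4% of Nrarp, 31.4% of Lrrc40 and 30.5% of Dgcr8, so their levels are uncertain. The summed level of 10 endothelial markers was 4940 to 6533 normalised counts in letrozole + anti-PD-1, 4316 to 7542 in letrozole, 3679 to 6496 in anti-PD-1 and 2279 to 8764 in vehicle tumours, with no member at 0 in any group. Of these 10, limma called 0 in the averaged letrozole comparison (1 at an unadjusted p under 0.05, 0 by edgeR, 0 by DESeq2). Over all 19844 genes, 4541 were at an unadjusted p under 0.05 in that comparison.

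**Figure D4:**
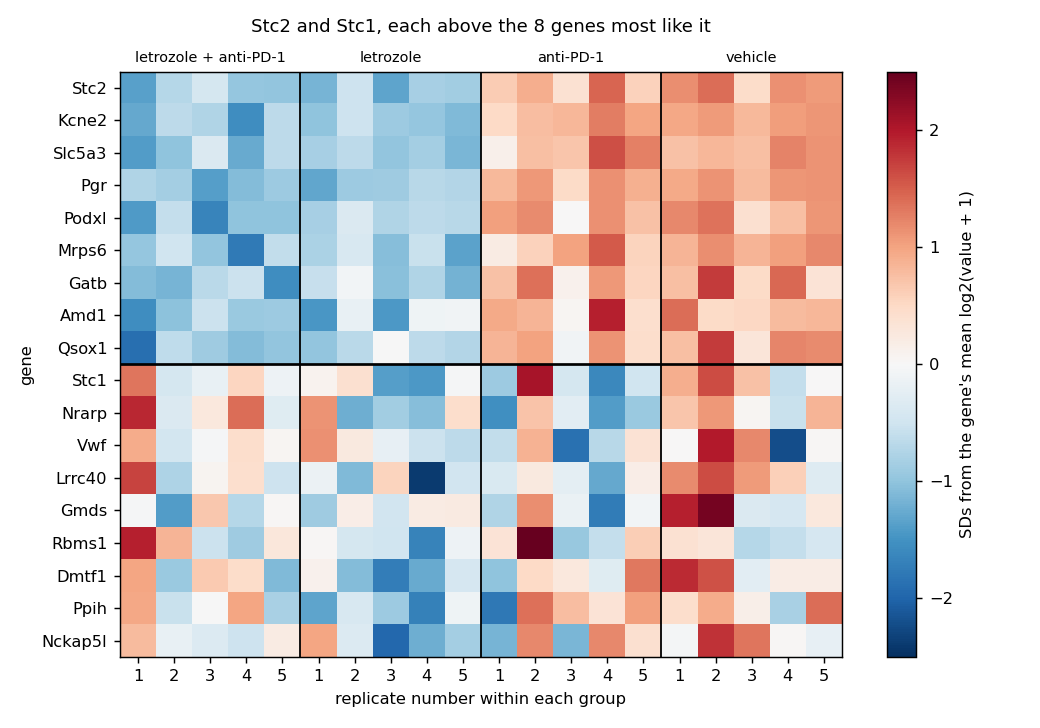
Log2(value + 1) of Stc2 and Stc1, each above the 8 genes most like it (rows), in 20 tumours (columns, by group and replicate number), in SDs from the mean of each gene. The block of Stc2 changes at the border between letrozole-treated and sham-operated tumours, with r from 0.92 to 0.96, and the block of Stc1, with r from 0.58 to 0.75, has no such border.

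Genes with a known tie to the stanniocalcins were then read in the letrozole difference averaged over both antibody arms. There limma called 7.00% of 19844 genes, 652 higher (3.29%) and 737 lower (3.71%), and 4541 were at an unadjusted p under 0.05. In the same comparison edgeR called 604 higher and 692 lower of 19844, and DESeq2 898 higher and 1118 lower of 16313. The lists were drawn up with results of these libraries known, and some of their members had been seen before. Of 13 genes of the PAPP-A and IGF axis, 11 had enough reads to be tested and limma called 0 (1 at an unadjusted p under 0.05, 0 by edgeR, 0 by DESeq2). Their median log2 difference was 0.45, against 0.03 over all genes. Pappa, the protease that stanniocalcins inhibit in humans, averaged 25.3 ± 22.8 normalised counts in letrozole + anti-PD-1, 38.5 ± 26.0 in letrozole, 22.4 ± 18.3 in anti-PD-1 and 46.7 ± 84.5 in vehicle tumours (log2 0.57, 95% interval −0.92 to 2.06, limma adjusted p = 0.68). Its substrate gene Igfbp4 had a log2 difference of 0.65 (95% interval −0.49 to 1.78, limma adjusted p = 0.507). Without vehicle replicate 3, limma called 1 of the 11 higher, the growth factor gene Igf1, named here after its values were seen. Over all genes limma then called 1275 of 19680 higher.

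Of 22 genes of calcium and phosphate transport, 14 were tested, and limma called 2 higher and 0 lower. Called higher were 3 by edgeR and 4 by DESeq2, and called lower 0 by each. The median log2 difference was 0.17, with 11 differences above 0 and 3 below. Xpr1, the phosphate exporter, averaged 3247 ± 619 normalised counts in letrozole + anti-PD-1 and 3223 ± 412 in letrozole, against 2262 ± 314 in anti-PD-1 and 2364 ± 238 in vehicle tumours (log2 0.48, SE 0.09, limma adjusted p = 0.00234). Orai2, a subunit of store-operated calcium channels, rose 1.24-fold (limma adjusted p = 0.022), a call lost when each library was centred on its median. Without vehicle replicate 3 and anti-PD-1 replicate 1, limma called 4 members higher and 1 lower. Calls over all genes also increased, to 1346 higher and 1123 lower of 19542.

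Of 19 hypoxia genes, all were tested, and limma called 0 higher and 4 lower. Called lower were 5 by edgeR and 8 by DESeq2, and called higher 0 by each. The median log2 difference was −0.24, with 4 differences above 0 and 15 below. Adm, which encodes the vasodilator adrenomedullin, averaged 820 ± 307 normalised counts in letrozole + anti-PD-1 and 879 ± 342 in letrozole, against 1819 ± 512 in anti-PD-1 and 2198 ± 1210 in vehicle tumours (2.25-fold lower, limma adjusted p = 0.0129). Ddit4, an inhibitor of mTOR signalling, was 1.59-fold lower (limma adjusted p = 3.08e-04). Kdm3a, which encodes a histone demethylase, was 1.41-fold lower (limma adjusted p = 7.70e-04). The glucose transporter gene Slc2a1 fell 1.47-fold (limma adjusted p = 0.0495), a call lost under 22 of 32 alternatives. Hif1a, the oxygen-regulated transcription factor gene, had a log2 difference of −0.24 (95% interval −0.41 to −0.06, limma adjusted p = 0.0967). DESeq2 called Hif1a lower, and 31 of the 32 alternatives did not call it. Without vehicle replicate 3 and anti-PD-1 replicate 1, limma called 8 members lower, while lower calls over all genes also increased, to 1123 of 19542.

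Of 19 genes of the unfolded protein and amino acid stress response, 18 were tested, and limma called 1 higher and 1 lower. With edgeR it was 1 higher and 1 lower, and with DESeq2 1 higher and 4 lower. The median log2 difference was −0.18, with 4 differences above 0 and 14 below. The serine synthesis gene Phgdh averaged 2717 ± 323 normalised counts in letrozole + anti-PD-1 and 2787 ± 381 in letrozole, against 4046 ± 957 in anti-PD-1 and 3881 ± 710 in vehicle tumours (log2 −0.51, SE 0.11, limma adjusted p = 0.00891). The stress protein gene Nupr1 rose 1.52-fold (limma adjusted p = 0.0123). Atf4, the transcription factor gene of this response, had a log2 difference of −0.17 (95% interval −0.43 to 0.08, limma adjusted p = 0.418). Without vehicle replicate 3 and anti-PD-1 replicate 1, limma called 1 member higher and 4 lower. Over all 19542 genes tested then, the calls were 1346 higher and 1123 lower.

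Of 20 oestrogen-responsive genes, 15 were tested, and limma called 1 higher and 3 lower. With edgeR it was 1 higher and 3 lower, and with DESeq2 2 higher and 4 lower. The median log2 difference was 0.17, with 8 differences above 0 and 7 below. Beside Pgr, Nrip1, a corepressor of nuclear receptors, fell 1.70-fold (limma adjusted p = 5.04e-04) and Myc, a growth-promoting transcription factor gene, 1.69-fold (0.00345). Rara, a retinoic acid receptor gene, rose 1.32-fold (limma adjusted p = 0.0106), a call lost when each library was centred on its median. The same members were called without vehicle replicate 3 and anti-PD-1 replicate 1. Of the members that passed in any of these lists, only Pgr had a difference as large as that of Stc2 (−3.49, beside −2.61).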

How the data were processed

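RNA-seq was done on 20 SSM3 tumours, 5 in each of 4 groups taken from the labels' titles. STAR 2.7.10a, DESeq2 and the build GRCm39 (mm39) are named by the submitters' processing notes. Counter, annotation release, strand setting and filters are stated in no source used here. One table was deposited by the authors, with a signal for each of 127442 Ensembl transcripts, which is the read count divided by 1 size factor per library (0.472 to 1.46). Undoing the division gave whole reads for 100% of values (tolerance 0.001), on which edgeR called 1296 genes in the averaged letrozole comparison. Over the 1 transcript taken for each gene, a library held 12456356 to 31301954 reads, and intervals cover the spread between tumours.

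GENCODE vM21 (GRCm38) named 118889 transcripts (93.3%), and 49 shared symbols were dropped. The upstream sequence is from RefSeq (GRCm38.p6), where 1 of the 2 genes was matched. Coordinates in GRCm39 are not given.

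The main test was limma 3.58.1 with a trend on log2(value + 1), for the 19844 genes that reached 10 in 5 or more libraries. All 20 libraries entered 1 fit of group means (16 residual degrees of freedom). P-values are two-sided, with Benjamini-Hochberg adjustment over all genes and a threshold of 0.05. Fold changes on this scale understate changes of low genes. The scripts were tested on simulated data. Alternatives were other pseudocounts and filters, other scalings, a replicate block, count tests on the recovered reads (DESeq2 1.42.0 and edgeR 4.0.16), other ways to represent a gene, and libraries left out.

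The members, the lists and the libraries called apart were chosen with earlier results of these data known. The named genes follow a rule: the 2 members and Pgr, the 8 genes most like each member over all libraries and the 5 most like it within groups, and of each list up to 6 called members with the smallest p, plus Pappa, Igfbp4, Hif1a and Atf4.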

Additional observations from a re-analysis of the deposited data

Results flagged for a closer look

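Stc1 in anti-PD-1 replicate 2, at 181 normalised counts, lay far from the other 4 tumours of its group, which ran from 22.5 to 44.2. The gap to the nearest was 0.864 of the group's range, above Dixon's 95% limit of 0.71 for 5 values. This rule was applied to normalised counts, and the log2 scale of the tests, which draws high values in, was not examined. In this library the summed fibroblast level was 5724 normalised counts, the lowest of its group, and Stc2 stood at 6016, inside the range of its group. Of 40 groups of values of the Stc transcripts examined, this was the 1 so marked, and chance marks about 5%. The cause was not tested.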

How the results depend on the processing

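For Stc1 and Stc2 in all 6 comparisons, each of the 32 alternatives kept the side of the threshold where there was a test, and the direction except for differences near 0 when single libraries were left out. With 1 library left out, the averaged letrozole difference of Stc1 ran from −0.34 to 0.031, the difference of Stc2 between letrozole + anti-PD-1 and letrozole from −0.093 to 0.23, and the correlation of Stc1 with Stc2 from −0.44 to 0.31 in letrozole-treated and from −0.14 to 0.45 in sham-operated tumours. The difference of Stc2 for letrozole against vehicle stayed between −3.04 and −2.69.

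The numbers of called genes moved more. For letrozole against vehicle (190) it was 126 with no filter on low values, 622 by DESeq2 and 1131 without vehicle replicate 3 and anti-PD-1 replicate 1. With 1 library left out it ran from 85 to 814: 86, 90, 814, 117 and 85 without vehicle replicates 1 to 5, and 92, 103 and 100 without letrozole replicates 3, 4 and 5. Under median centring 40 were higher and 99 lower, against 81 and 109. For letrozole + anti-PD-1 against anti-PD-1 (213) it was 110 with no filter, 533 by DESeq2 and 72 to 263 with 1 library left out (123 and 72 without anti-PD-1 replicates 2 and 4, and 112, 126 and 117 without letrozole + anti-PD-1 replicates 1, 3 and 5). Averaged over both arms (1389) it was 2469 without both libraries that stand apart and 936 to 2336 with 1 left out, the highest without vehicle replicate 3. Where limma called 0, DESeq2 called 5 for anti-PD-1 against vehicle, 9 for letrozole + anti-PD-1 against letrozole and 4 for the interaction. With 1 library left out, limma called 0 to 1 for letrozole + anti-PD-1 against letrozole. DESeq2 was not run with libraries left out.

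With the replicate number as a block, limma called 221, 236 and 1391 genes in the letrozole comparisons and 0, 1 and 0 in the others, and neither Stc1 in any comparison nor Stc2 in the antibody comparisons passed the threshold. Deviations of same-numbered tumours correlated above 0.1 in 3 of 30 pairs, with a mean r of −0.0071, against 0.0017 for different numbers. Correlations alone cannot tell whether the numbers pair the tumours. Stc1 rests on 16 to 126 reads per tumour. Differences inside its intervals, which cover the spread between tumours, were not detectable.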

Other observations

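The antisense gene Gm41192, whose exons overlap those of Stc1, was listed at 0 to 18.6 normalised counts, or 0 to 15 reads per tumour. Its highest value, 18.6, was in anti-PD-1 replicate 2, the tumour with the highest level of Stc1.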
